A study of Mus musculus with 4 samples.

Results

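The genes examined act in hyaluronan synthesis, binding and turnover and were compared between fat cells of the skin and of the groin. They were chosen by name, as Has1, Has2, Hyal1, Hyal2, Cd44, Lyve1, Vcan, Tnfaip6 and Ptx3. All 9 were found among the 18781 genes of the deposited table. RNA came from mature adipocytes of mice of the inbred C57BL/6 strain at postnatal day 30, with no treatment or engineered allele named for either group. Dorsal skin gave the dermal adipocytes (2 libraries), and inguinal fat, a subcutaneous depot of the groin, gave the others (2 libraries). Both were freed with collagenase IV and dispase II and collected by floating in a centrifuge. The labels do not say whether animals were pooled or whether replicates stem from different animals. The p-values therefore cover the spread between these libraries alone, and that spread may be technical.

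Hyaluronan is a long, unsulfated sugar polymer of the space between cells. Synthases in the plasma membrane make it from UDP-glucuronic acid and UDP-N-acetylglucosamine and push it out of the cell while it grows. Hyaluronidases cut it, receptors such as CD44 and LYVE1 bind it, and versican, TSG-6 (encoded by Tnfaip6) and pentraxin 3 (encoded by Ptx3) bind or crosslink it into a matrix. The dermis is rich in hyaluronan, and the matrix around expanding ovarian follicle cells is the textbook case in which Has2, Vcan, Tnfaip6 and Ptx3 act together.

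Ptx3 and Tnfaip6 were far higher in inguinal libraries, by 8.73-fold and 5.63-fold as ratios of mean levels, while Lyve1 and Vcan were higher in dermal libraries, by 2.87-fold and 2.32-fold. The synthase genes Has1 and Has2, the hyaluronidase genes Hyal1 and Hyal2 and the receptor gene Cd44 did not pass the test. The same inguinal libraries held more transcript of most listed blood endothelial and immediate early genes, and the dermal ones more of the macrophage genes, with values beside each member. In RNA from a whole preparation, fewer cells of a type and less RNA per cell cannot be told apart. Each level is the deposited normalized CPM, in which the authors put the libraries on a common scale. Each log2 fold change is a dermal minus inguinal difference of log2(CPM + 0.5), which understates the change of low genes, and adjusted p below 0.05 (limma, over 12797 genes) counts as passing.

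Of the 9 members, all passed the filter on low levels. Lyve1 and Vcan (2 members) were higher in dermal libraries, Tnfaip6 and Ptx3 (2 members) in inguinal ones, and the other 5 did not pass. Among all tested genes 16.4% passed in either direction, 7.56% higher in dermal and 8.8% higher in inguinal. The levels of 7 members did not overlap between the depots, 3 with dermal and 4 with inguinal libraries on top, against 61.8% of all tested genes (31.6% and 30.1%). The median log2 fold change of the members was 0.03, against 0.02 for all tested genes. A difference of at least 1 on the log2 scale was seen in 5 members, Has1 among them, against 12.2% of all tested genes.

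**Figure D1:**
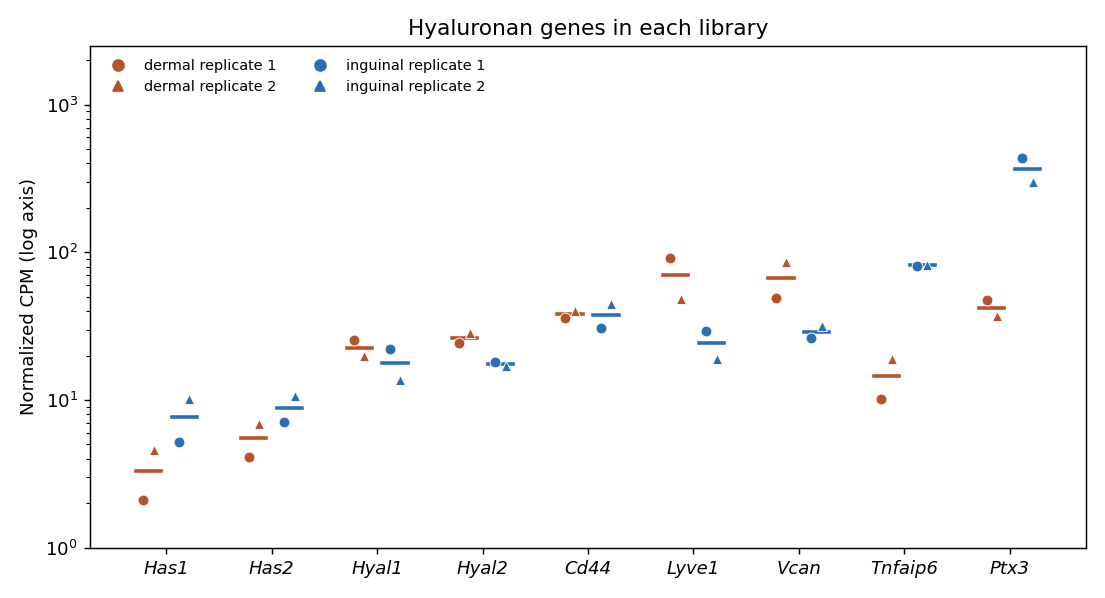
Normalized CPM (log axis) of each of the 9 genes in the 4 libraries, with circles for replicate 1, triangles for replicate 2 and bars for the mean of each depot. Both inguinal libraries lie above both dermal libraries for Tnfaip6 and Ptx3 and below them for Lyve1 and Vcan, and the depots overlap for Hyal1 and Cd44.

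The synthase genes had the lowest CPM of the members, a scale not corrected for length. Has1 (chromosome 17, 17843323 to 17855205, minus strand, GRCm38) measured 2.09 and 4.55 CPM in the dermal and 5.24 and 10.1 CPM in the inguinal libraries. The dermal libraries were the lower ones without overlap, on 71 dermal and 166 inguinal reads. Its log2 fold change was -1.11 (SE 0.42, adjusted p = 0.128), with a 95% interval of -2.12 to -0.09 before adjustment, and it passed without inguinal replicate 1 (-1.55, adjusted p = 0.0226). Has2, which makes the long chains that early development depends on (chromosome 15, 56665627 to 56694539, minus strand), measured 4.10 and 6.93 CPM in the dermal pair and 7.09 and 10.6 CPM in the inguinal pair. Here too the depots did not overlap, but the higher dermal and the lower inguinal library lay close together. The log2 fold change was -0.65 (SE 0.31, adjusted p = 0.208), with a 95% interval of -1.41 to 0.11. Has2 shares 182 exon bases with the antisense gene Has2os, which had 4 dermal and 2 inguinal reads. Has3, the third synthase gene, stood at 1.18 and 1.14 CPM in the dermal pair and 0.760 and 1.45 CPM in the inguinal pair and did not pass (log2 fold change 0.08, SE 0.35, adjusted p = 0.897). Per kb of exon, Has2 made up 59.8% and 57.9% of the summed synthase level in dermal libraries and 56.7% and 50.3% in inguinal libraries. The corresponding shares of Has1 were 28.7% and 35.7% in dermal and 39.3% and 45.1% in inguinal libraries, and those of Has3 ran from 4.04% to 11.5% over the 4 libraries.

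The hyaluronidase genes lie side by side on chromosome 9, with 4147 bases between them. Hyal2, whose product is anchored at the cell surface and starts the cutting of long chains (107567945 to 107572779, plus strand), measured 24.3 and 28.6 CPM in the dermal pair and 18.0 and 16.9 CPM in the inguinal pair. Both dermal libraries were above both inguinal ones. The log2 fold change was 0.58 (SE 0.16, adjusted p = 0.0577), close to the threshold without passing it. Hyal1, the lysosomal enzyme that cuts the fragments further (107576927 to 107581710, plus strand), measured 25.3 and 19.9 CPM in the dermal pair and 22.1 and 13.8 CPM in the inguinal pair. The depots overlapped, with a log2 fold change of 0.35 (SE 0.26, adjusted p = 0.389) and a 95% interval of -0.26 to 0.97. Hyal1 shares 1920 exon bases with Naa80 and 159 with Hyal3 on the same strand, so its reads may have been split or left out in the counting.

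The receptor gene Lyve1 (chromosome 7, 110850607 to 110863239, minus strand) encodes a hyaluronan receptor of lymphatic endothelium and of some tissue-resident macrophages. It measured 91.1 and 48.4 CPM in the dermal and 29.6 and 19.1 CPM in the inguinal libraries, from 1511 and 547 reads. Both dermal libraries were above both inguinal ones, and the dermal pair itself was widely spaced. The log2 fold change was 1.46 (SE 0.33, adjusted p = 0.0312). It lost its call without dermal replicate 1 (1.01, adjusted p = 0.0835), without a filter on low levels (adjusted p = 0.0523) and without the intensity trend of the test (adjusted p = 0.0653).

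Markers of both cell types known for Lyve1 were read beside it. All 7 listed markers of LYVE1-positive resident macrophages passed as higher in dermal libraries, with a median log2 fold change of 1.57, and their summed level was 1374 and 1266 CPM in the dermal pair and 434 and 378 CPM in the inguinal pair. Folr2, the folate receptor of such macrophages, measured 94.0 and 89.7 CPM against 32.8 and 36.7 CPM, Cd163, a hemoglobin scavenger receptor, 132 and 135 CPM against 48.1 and 47.4 CPM, and Timd4, a receptor for dying cells, 21.4 and 18.1 CPM against 7.01 and 6.79 CPM. None of these defining markers was at 0. Of the general macrophage list 10 of 11 members were tested, and all 10 were higher in dermal libraries, with a median log2 fold change of 1.64. That list summed to 1203 to 1283 CPM in dermal and 368 to 408 CPM in inguinal libraries. Mrc1 is on both lists, and together with F13a1 and Gas6 it held most of the resident macrophage sum. As a percentage of the summed resident macrophage level, a ratio chosen after the values were seen, Lyve1 stood at 6.63 and 3.82 in dermal and at 6.81 and 5.06 in inguinal libraries, so on that scale the depots overlapped. The lymphatic list went the other way, with 2 of 5 tested members passing on the inguinal side and 0 on the dermal side, and a sum of 53.8 and 66.9 CPM in dermal against 89.8 and 142 CPM in inguinal libraries. Its defining marker Prox1, the lymphatic identity factor, was at 0.253 to 0.776 CPM in the 4 libraries, below the filter. Nrp2 (log2 fold change -1.02) held most of the lymphatic sum in each of the 4 libraries, and it passed together with Flt4 (-1.58). Mmrn1 and Reln met the filter through the inguinal libraries alone, so they could pass on that side only. Pdpn lay toward the dermal side without passing (0.56, SE 0.44, adjusted p = 0.435). Whether lymphatic RNA itself differed between the depots was not tested. What part the amount of macrophage RNA has in the Lyve1 difference was not tested.

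Cd44, which encodes the main hyaluronan receptor of most cells (chromosome 2, 102811141 to 102901665, minus strand), measured 36.0 and 40.0 CPM in the dermal pair and 30.6 and 44.9 CPM in the inguinal pair. The inguinal pair spanned the dermal pair. The log2 fold change was 0.03 (SE 0.21, adjusted p = 0.930) and its 95% interval ran from -0.46 to 0.53. The estimate took the opposite sign in DESeq2 and when dermal replicate 2 or inguinal replicate 1 was left out. Cd44 and Vcan are spliced into many forms, which gene-level counts do not separate.

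**Figure D2:**
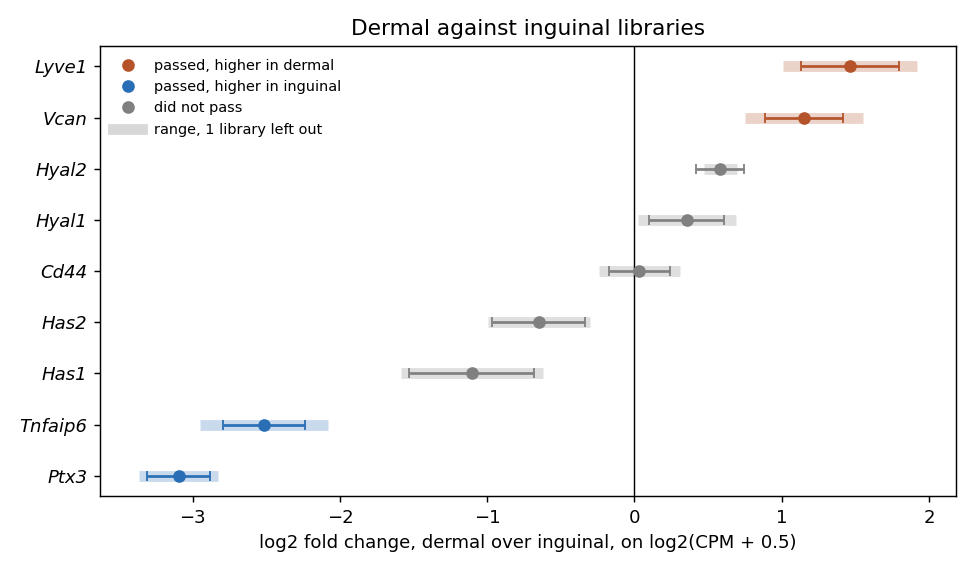
Log2 fold change of each member, dermal over inguinal, as points with standard errors, over pale bands that span the 4 estimates with 1 library left out. Lyve1 (1.46) and Vcan (1.15) passed on the dermal side and Tnfaip6 (-2.52) and Ptx3 (-3.10) on the inguinal side, and the band of Cd44 crosses 0.

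Versican, encoded by Vcan (chromosome 13, 89655312 to 89742509, minus strand), is a large chondroitin sulfate proteoglycan whose head binds hyaluronan. Its level was 48.9 and 85.4 CPM in the dermal and 26.2 and 31.7 CPM in the inguinal libraries. Both dermal libraries were higher, and dermal replicate 2 stood well above dermal replicate 1. The log2 fold change was 1.15 (SE 0.27, adjusted p = 0.0339). It did not pass without dermal replicate 2 (0.75, adjusted p = 0.114), without a filter on low levels (adjusted p = 0.0544) and without the intensity trend (adjusted p = 0.0684).

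Fibroblasts are a known source of versican, and of 11 listed fibroblast and progenitor markers 1, Thy1, passed on the dermal side, 0 passed on the inguinal side and 10 on neither. Their summed level was 4982 and 10817 CPM in the dermal pair and 3468 and 5875 CPM in the inguinal pair. Collagen genes held most of that sum, and no defining marker was at 0. The lowest value of this sum in dermal libraries lay below the highest in inguinal ones. Relative to it, a ratio chosen after the values were seen, Vcan stood at 0.981% and 0.789% in dermal and at 0.755% and 0.540% in inguinal libraries. The defining fibroblast markers were split. Col1a1 measured 528 and 1524 CPM in the dermal pair and 159 and 382 CPM in the inguinal pair (log2 fold change 1.86, SE 0.57, adjusted p = 0.0733). Pdgfra (-0.13, SE 0.36, adjusted p = 0.832) and Dpp4 (-0.91, SE 0.50, adjusted p = 0.263) lay toward the inguinal side. Of the 11 log2 fold changes of the list, 6 were positive. The part of fibroblast RNA in the Vcan difference was not tested.

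TSG-6, the product of Tnfaip6 (chromosome 2, 52038009 to 52056686, plus strand), is secreted in response to inflammatory signals and transfers protein heavy chains onto hyaluronan. Tnfaip6 measured 10.1 and 18.9 CPM in the dermal and 80.7 and 82.3 CPM in the inguinal libraries. The inguinal libraries agreed closely with each other and were several-fold above both dermal ones. Its log2 fold change was -2.52 (SE 0.28, adjusted p = 0.00354), and it lay between -2.95 and -2.08 with libraries left out in turn. From the inguinal end of all 12797 tested fold changes it ranked 54.

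Ptx3 (chromosome 3, 66219910 to 66225805, plus strand) encodes pentraxin 3, a secreted pattern recognition protein that crosslinks the hyaluronan matrix. It stood at 47.3 and 36.9 CPM in dermal and at 435 and 300 CPM in inguinal libraries, from 909 and 8247 reads. The gap between the depots was far wider than that within either. The log2 fold change was -3.10 (SE 0.21, adjusted p = 0.00161), from -3.37 to -2.83 with libraries left out in turn, and it ranked 15 from the same end.

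The upstream bases of Ptx3 and Tnfaip6 are shown because these members differed together, toward the inguinal side. They come from RefSeq on GRCm38.p6 and end at the base before the RefSeq start, or before the GENCODE start where that comes first. The gene's own strand is read 5′ to 3′ in lower case, and capitals mark matches to the motifs of AP-1 and C/EBP, factors active in inflamed and stimulated cells. Promoter entries matched 7 of the 9 members.
Ptx3 (chr3:66219637-66219886, plus strand): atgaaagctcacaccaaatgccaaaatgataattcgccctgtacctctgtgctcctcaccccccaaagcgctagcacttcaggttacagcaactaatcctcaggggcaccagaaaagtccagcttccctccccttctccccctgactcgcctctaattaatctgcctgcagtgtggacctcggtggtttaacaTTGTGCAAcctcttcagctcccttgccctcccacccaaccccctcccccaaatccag
Tnfaip6 (chr2:52037863-52038008, plus strand): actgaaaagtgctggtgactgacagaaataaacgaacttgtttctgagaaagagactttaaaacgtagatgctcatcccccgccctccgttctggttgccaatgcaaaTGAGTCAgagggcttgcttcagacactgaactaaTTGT
The motifs, chosen with these sequences in view and searched on both strands in the 250 bases before each RefSeq start, were TGANTCA for AP-1 and TTNNGNAA for C/EBP, and no matches overlapped. AP-1 letters were found in 6.75% of all 32851 windows and in 1 of the 7 member windows, that of Tnfaip6, as TGAGTCA from -142 to -136. C/EBP letters were found in 36.8% of all windows and in 3 of the 7 member windows. These were Ptx3 with TTGTGCAA from -57 to -50, Has1, which did not pass the test, with TTGTGAAA from -213 to -206, and Tnfaip6 with TTGTGTAA from -108 to -101, which runs past the end of the stretch shown. A match describes letters and does not show that a factor binds there.

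Other groups of transcripts were read beside Tnfaip6 and Ptx3. Of 12 listed inflammation-induced genes, 6 passed on the inguinal and 4 on the dermal side, with a sum of 1093 and 1122 CPM in the dermal pair and 2608 and 2570 CPM in the inguinal pair. Il6, a cytokine of the same response, measured 16.9 and 18.0 CPM in the dermal pair and 127 and 122 CPM in the inguinal pair (log2 fold change -2.80, SE 0.13, adjusted p = 0.000664), and Cxcl1, a neutrophil chemokine, was higher there too (-2.01, SE 0.20, adjusted p = 0.00297). Tnf (2.27) and Il1b (1.90), which encode inducers of both Tnfaip6 and Ptx3 in cultured human cells, were among the 4 that were higher in dermal libraries. Ptgs2, which encodes the inducible cyclooxygenase, did not pass (0.18, SE 0.27, adjusted p = 0.682). Of 11 immediate early genes, transcripts that rise quickly when tissue is dissociated, 7 passed on the inguinal side and 0 on the dermal side, with sums of 1851 and 2749 CPM against 5133 and 5957 CPM. All 9 blood endothelial markers were higher in inguinal libraries, with sums of 395 and 453 CPM against 1438 and 2248 CPM and a median log2 fold change of -2.003. No defining marker of these 3 lists was at 0, and their part in the differences of Tnfaip6 and Ptx3 was not tested. Mesothelial cells also make hyaluronan matrix, and the 5 mesothelial markers in the table summed to 3.91 and 4.36 CPM in the dermal pair and 5.07 and 5.43 CPM in the inguinal pair. Of the defining markers, Lrrn4 measured 3.004 and 3.04 CPM against 4.98 and 5.14 CPM (log2 fold change -0.66, SE 0.23, adjusted p = 0.0999), higher in both inguinal libraries without passing, and Msln had 1 dermal read and was at 0 in inguinal libraries. Bnc1, which was below the filter, had 20 dermal reads and 0 inguinal reads. The part of mesothelial RNA was not tested.

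**Figure D3:**
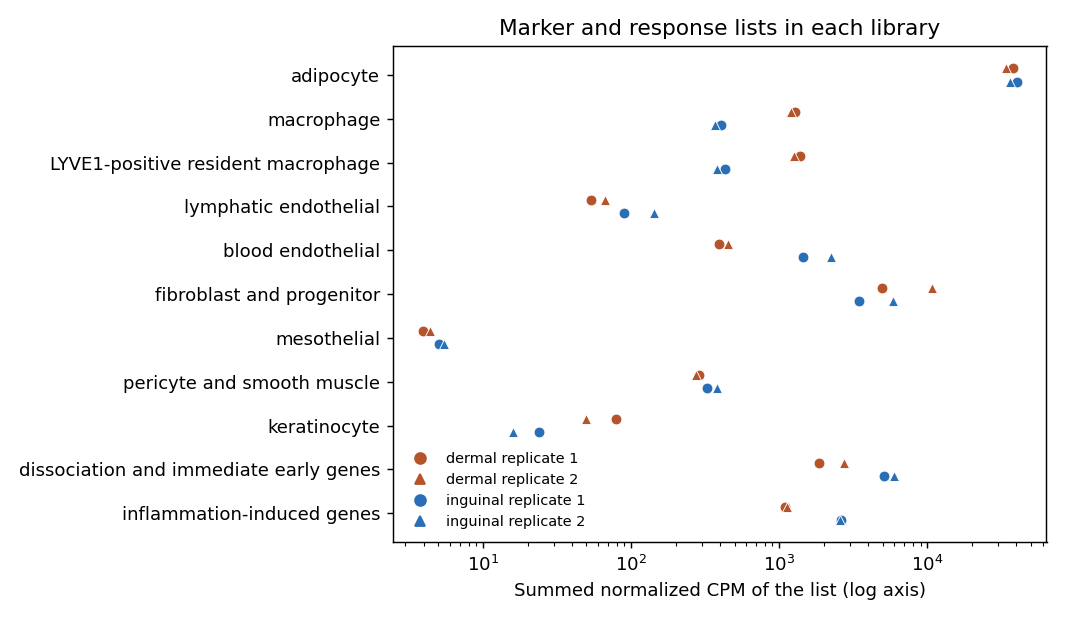
Summed normalized CPM (log axis) of each marker or response list in the 4 libraries, circles for replicate 1 and triangles for replicate 2. The macrophage and keratinocyte sums are higher in both dermal libraries, the endothelial, immediate early and inflammation-induced sums in both inguinal libraries, and the fibroblast sums overlap.

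Levels of different genes were set in order per kb of exon, from the union of annotated exons in GENCODE M21. The reads may have been counted on other exon models, so these levels and the synthase shares per kb are approximate. Of the 3777 bases taken for Hyal1, 1920 are shared with Naa80. In dermal libraries the order of mean CPM per kb was Lyve1 (23.9), Ptx3 (15.7), Tnfaip6 (8.47), Hyal2 (8.03), Hyal1 (5.99), Cd44 (5.61), Vcan (4.64), Has2 (1.30) and Has1 (0.736). Neighbours whose libraries overlapped were Lyve1 and Ptx3, Tnfaip6 and Hyal2, Hyal1 and Cd44, Cd44 and Vcan, and Has2 and Has1. In inguinal libraries the order of mean CPM per kb was Ptx3 (137), Tnfaip6 (47.7), Lyve1 (8.33), Cd44 (5.57), Hyal2 (5.29), Hyal1 (4.75), Has2 (2.08), Vcan (2.001) and Has1 (1.70). There the libraries of Lyve1 and Cd44, Cd44 and Hyal2, Hyal2 and Hyal1, Has2 and Vcan, and Vcan and Has1 overlapped.

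**Figure D4:**
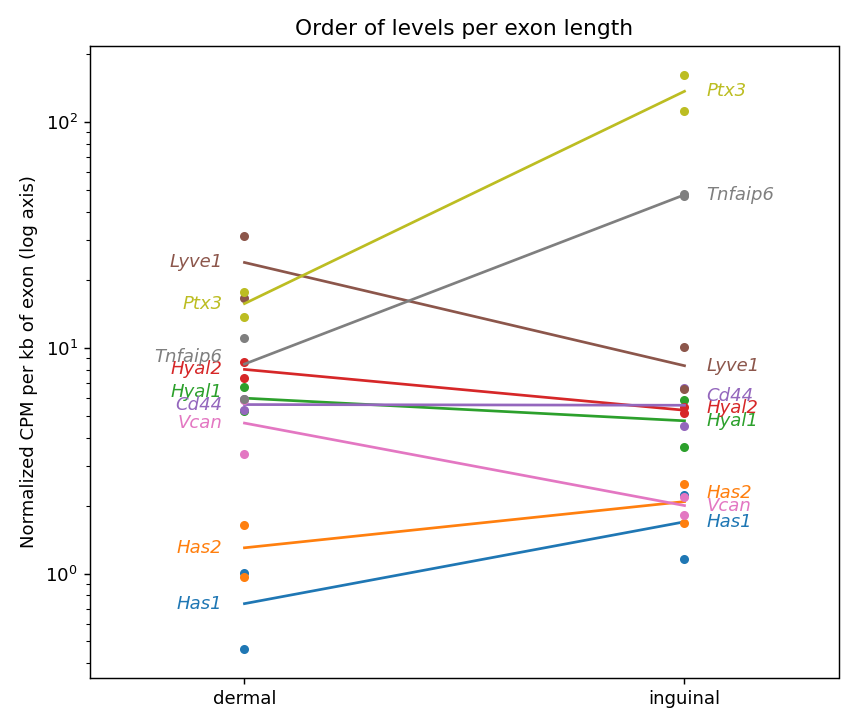
Normalized CPM per kb of exon (log axis) of the 9 members, with points for libraries and lines joining the depot means. Ptx3 goes from 15.7 in dermal to 137 in inguinal libraries and Tnfaip6 from 8.47 to 47.7, while Lyve1 goes from 23.9 to 8.33.

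Further genes of the pathway were taken from lists chosen by function. Of 51 listed genes 50 were in the table and 33 passed the filter, of which 6 passed on the dermal side, 7 on the inguinal side and 20 on neither. Among all tested genes 7.56% passed on the dermal and 8.8% on the inguinal side. The lists were chosen with earlier results of these data known, so these counts are a description. The median log2 fold change of the 33 genes was -0.08. Among 6 genes of versican-cleaving ADAMTS proteases, 3 passed on the inguinal side and 1 on the dermal side. Adamts1 measured 82.7 and 134 CPM in the dermal pair and 625 and 719 CPM in the inguinal pair (log2 fold change -2.67, SE 0.23, adjusted p = 0.00211). Adamts4 measured 10.01 and 14.6 CPM against 78.4 and 80.1 CPM (-2.66, SE 0.20, adjusted p = 0.00166), and Adamts9 was also higher in inguinal libraries (-1.16, SE 0.13, adjusted p = 0.00389). Adamts5 went the other way, at 204 and 286 CPM in the dermal pair and 76.9 and 72.2 CPM in the inguinal pair (1.69, SE 0.18, adjusted p = 0.00342). Like Vcan, Adamts5 was higher in dermal libraries, whereas the other 3 protease genes that passed were higher in inguinal libraries. Versican protein and its cleavage were not measured.

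Of 9 genes for the precursor sugars, 3 passed on the inguinal side and 1 on the dermal side. Uap1, which makes UDP-N-acetylglucosamine, measured 88.9 and 102 CPM in the dermal pair and 254 and 248 CPM in the inguinal pair (log2 fold change -1.39, SE 0.13, adjusted p = 0.00259). Gfpt2, an entry enzyme of the hexosamine route, measured 17.4 and 22.4 CPM against 38.3 and 59.0 CPM (-1.25, SE 0.24, adjusted p = 0.0197). Ugdh, which makes UDP-glucuronic acid, measured 62.6 and 61.9 CPM against 88.3 and 87.3 CPM (-0.49, SE 0.12, adjusted p = 0.0393). Uap1l1, a relative of Uap1, was higher in dermal libraries (1.047, SE 0.25, adjusted p = 0.0352), and Ugp2, which makes UDP-glucose, did not pass (-0.32, SE 0.26, adjusted p = 0.444). These enzymes also feed glycogen, glycoproteins and other polymers.

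Of 5 tested depolymerases and exoglycosidases, 2 lysosomal genes passed on the dermal side and 0 on the inguinal side. Hexa, a subunit of beta-hexosaminidase, measured 216 and 220 CPM in the dermal pair and 148 and 119 CPM in the inguinal pair (log2 fold change 0.71, SE 0.15, adjusted p = 0.0231). Gusb, beta-glucuronidase, measured 55.9 and 53.4 CPM against 38.8 and 30.6 CPM (0.66, SE 0.16, adjusted p = 0.0394). The cell-surface hyaluronidase gene Cemip2, listed under its older symbol Tmem2, did not pass (-0.69, SE 0.22, adjusted p = 0.0863), and Cemip had 1 read in each depot.

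Of 8 tested receptors and CD44 adaptors, 2 passed on the dermal side and 0 on the inguinal side. Stab1, a scavenger receptor of macrophages and sinusoidal endothelium, measured 115 and 123 CPM in the dermal pair and 34.3 and 45.5 CPM in the inguinal pair (log2 fold change 1.58, SE 0.17, adjusted p = 0.00334). Tlr2, an innate receptor that responds to hyaluronan fragments, was also higher in dermal libraries (0.68, SE 0.17, adjusted p = 0.0391). The macrophage sums given beside Lyve1 were also higher in dermal libraries. Within each depot Stab1 was higher in the library with the lower general macrophage sum, an order that rests on 2 libraries and decides nothing. The part of macrophage RNA was not tested. The adaptors Msn (-0.48, SE 0.14, adjusted p = 0.0591) and Rdx (-0.20, SE 0.13, adjusted p = 0.319), which tie CD44 to actin, did not pass.

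Among binding proteins and heavy chain genes, 4 of 15 passed the filter and 1 passed the test. Itih4, of the inter-alpha-trypsin inhibitor heavy chain family, measured 1.46 and 2.18 CPM in the dermal pair and 25.8 and 14.2 CPM in the inguinal pair (log2 fold change -3.10, SE 0.34, adjusted p = 0.00346). Itih5, of the same family, was abundant without passing (475 and 697 CPM against 536 and 689 CPM, -0.08, SE 0.22, adjusted p = 0.842), and so was Habp4 at a lower level (11.5 and 13.3 CPM against 12.2 and 13.2 CPM, adjusted p = 0.916). Itih1, Itih2 and Itih3, the heavy chain genes of liver, had at most 10 reads in a depot, and Ambp, which encodes the light chain bikunin, had 2 reads in dermal and none in inguinal libraries.

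Several of the smaller differences lost their calls when a library was left out. Over all genes, the calls fell when either dermal library was left out and rose when either inguinal library was. Without dermal replicate 1 the calls of Ugdh (adjusted p = 0.232), Gfpt2 (0.0636), Uap1l1 (0.207), Gusb (0.195), Hexa (0.107) and Tlr2 (0.108) were lost. Without dermal replicate 2 those of Ugdh (adjusted p = 0.255), Uap1l1 (0.0788), Gusb (0.148), Hexa (0.119) and Tlr2 (0.282) were lost. Ugdh (adjusted p = 0.0507) and Uap1l1 (0.0595) also lost their calls without inguinal replicate 1, and Gusb (0.0626) without inguinal replicate 2. The estimates moved little in the fits that lost the call for Ugdh (-0.50, -0.48 and -0.49) and Hexa (0.72 and 0.70), and those of Gusb were 0.62, 0.69 and 0.49. The calls of Uap1, Stab1, Itih4, Adamts1, Adamts4, Adamts5 and Adamts9 held with each library left out and in each other alternative.

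**Figure D5:**
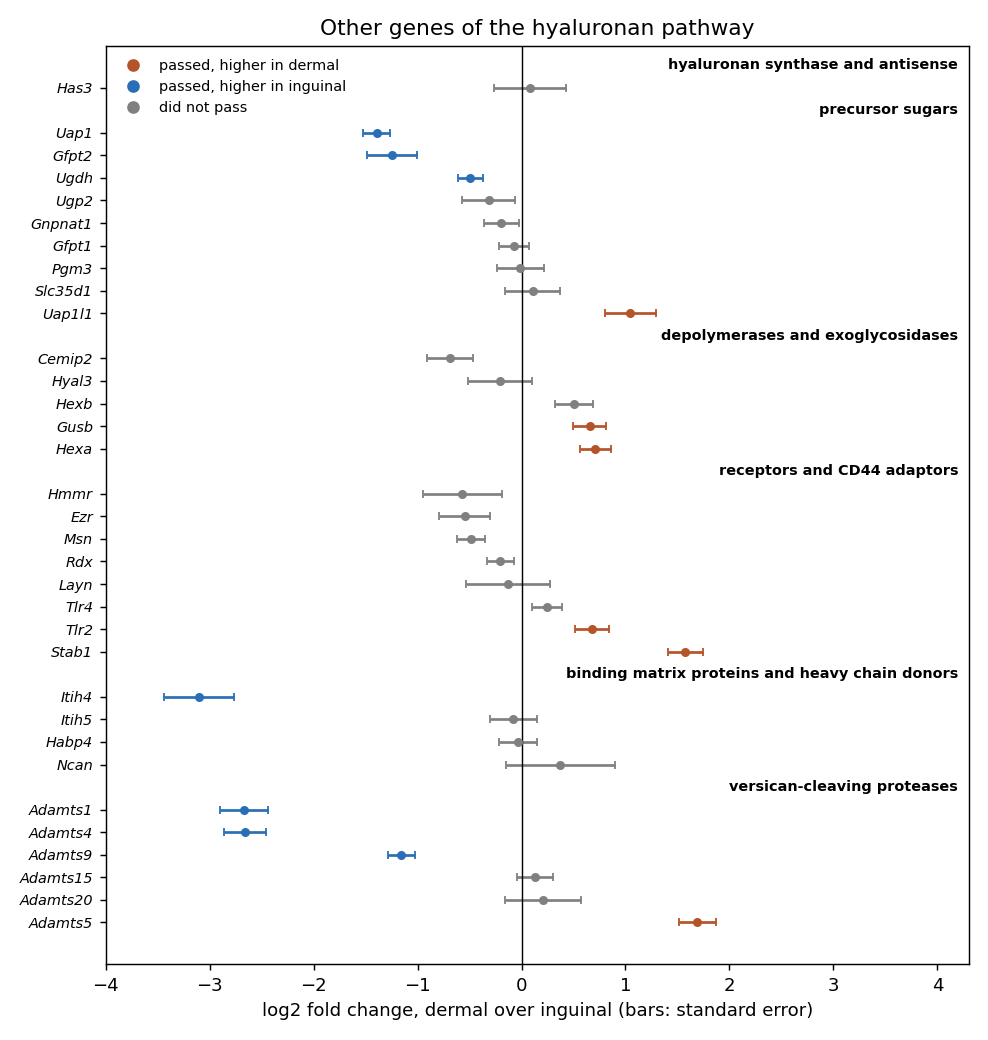
Log2 fold change of the 33 tested genes of the other pathway lists, dermal over inguinal, with standard errors, grouped by list. Itih4 (-3.10), Adamts1 (-2.67) and Adamts4 (-2.66) lie farthest to the inguinal side, and Adamts5 (1.69) and Stab1 (1.58) farthest to the dermal side.

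The tested genes most like each member that passed were found by the root mean square difference of log2(CPM + 0.5) over the 4 libraries, each gene centred on its mean. For Tnfaip6 these were Rrad and Gem, small GTP-binding proteins (differences of 0.10 and 0.11), and Adamts1 (0.12). For Ptx3 they were Mpzl2 (0.22), the acyl-CoA thioesterase gene Acot11 (0.23) and Gm4841 (0.25), on 13 to 29 dermal reads each. No other tested gene followed Ptx3 more closely than that on this scale. Mpzl2 met the filter through the inguinal libraries alone. Their ratios of mean CPM, inguinal over dermal, were 13.2, 10.4 and 15.4 against 8.73 for Ptx3. For Vcan they were Fap, a surface protease of activated fibroblasts (0.06), Nrap (0.06) and Tmem100 (0.07). For Lyve1 they were the chemokine receptor gene Cxcr3 (0.08), the lectin gene Cd209a (0.09) and 2010016I18Rik (0.12), on 7 to 27 inguinal reads each. None of them passed the test, and Cxcr3 and 2010016I18Rik met the filter through the dermal libraries alone. Their ratios of mean CPM, dermal over inguinal, were 6.13, 4.04 and 3.39 against 2.87 for Lyve1, since adding 0.5 shrinks the change of low genes. With 4 libraries many genes share such patterns, and the likeness is a description.

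The depth and identity of the libraries were as follows. Recovered reads numbered 10127125 to 12730013 per library, and 3 reads corresponded to 0.253 to 0.291 CPM. The adipocyte markers Adipoq, Plin1 and Lep were abundant in all 4 libraries, and the 9 listed adipocyte genes summed to 34039 to 40201 CPM, with Plin1 and Lep passing on the dermal side and the other 7 on neither. Of the other marker lists, 4 of 5 tested keratinocyte genes passed on the dermal side (0 inguinal), 6 of 8 pericyte and smooth muscle genes on the inguinal side (1 dermal), and the 1 tested mesothelial gene on neither. Krt5, Dsp and Krt15 met the filter through the dermal libraries alone, so they could pass on that side only. Of the keratinocyte genes above 1 CPM in both depots, Trp63 passed on the dermal side and Krt10 on neither. The first principal component separated the depots (76.4% of the variance), and the second (17.7%) separated replicate 1 from replicate 2 in both depots.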

How the data were processed

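RNA-seq of 2 dermal and 2 inguinal adipocyte preparations was analysed from 1 gene-level table of normalized CPM, as the deposited table is named. The deposited values are a signal scaled by the authors beyond plain CPM, as their columns have unequal sums. The submitters' processing notes name, without roles, TopHat2 2.0.12, mm10, Subread 1.4.6, featureCounts, edgeR, Picard 1.127, FastQC and bcl2fastq. Per the labels' protocols, libraries were stranded total RNA. The strand rule used in counting was not given in the sources used here, and sense and antisense reads may not be separable.

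Every column was made of whole multiples of the value of 1 read (100% of genes, tolerance 0.001). The 12797 genes at 1 CPM or more in at least 2 of 4 libraries entered limma 3.58.1 (R 4.3.3) as log2(CPM + 0.5), with an intensity trend and a two-sided test, Benjamini-Hochberg adjusted over all of them and checked on simulated counts. It called 2094 genes, and on the recovered reads edgeR 4.0.16 called 2056 and DESeq2 1.42.0 1985. An exact permutation test of 2 against 2 cannot go below p = 0.333. The members, lists and tests were chosen with earlier results of these data known. All members, each listed pathway gene that passed, the 2 most abundant genes of each pathway list and the defining markers could be named. Tnf, Il1b, Thy1, Bnc1, Cemip, Cemip2, Itih1, Itih2, Itih3 and Ambp were named after their values were seen. So were Nrp2, Pdpn, Reln, Mrc1, F13a1, Gas6, Krt15, Trp63 and Krt10. Hyal4 and Upk3b are not analysed here. Changed symbols were matched through RefSeq synonyms, and positions are from GENCODE M21.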

Additional observations from a re-analysis of the deposited data

How the results depend on the processing

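Each result was recomputed under 15 alternatives. The calls of Tnfaip6 and Ptx3 held in all of them, with log2 fold changes from -2.95 to -2.08 and from -3.37 to -2.83 with libraries left out in turn. Vcan and Lyve1 did not pass without a filter (adjusted p = 0.0544 and 0.0523) or without the intensity trend (0.0684 and 0.0653) at unchanged log2 fold changes of 1.15 and 1.46. In both settings 0 members were called as higher in dermal libraries. With libraries left out Vcan and Lyve1 ranged from 0.75 to 1.55 and from 1.01 to 1.92. Where a library is left out, the lone library of its depot is assumed to vary like the other depot. Cd44 took the opposite sign in DESeq2 (-0.0023), without dermal replicate 2 (-0.04) and without inguinal replicate 1 (-0.24), and ranged up to 0.31. Has1 ranged from -1.59 to -0.62, Has2 from -0.996 to -0.30, Hyal1 from 0.02 to 0.69 and Hyal2 from 0.47 to 0.70 with libraries left out. With libraries left out, members called ranged from 1 to 2 (dermal) and 2 to 3 (inguinal), other pathway genes from 2 to 7 and 5 to 9, and all genes from 339 to 1212 and 568 to 1470. The 339 came without dermal replicate 2 and the 568 without dermal replicate 1. Other pathway genes called as higher in dermal numbered 3 without a filter and 3 without the intensity trend.

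A replicate block, using the numbers of the titles, gave the same fold changes with smaller errors. Its calls numbered 2342 genes on the dermal and 2384 on the inguinal side, and among the members 3 on the dermal and 4 on the inguinal side, adding Has1 (-1.11, adjusted p = 0.00105) and Has2 (-0.65, adjusted p = 0.0177), and Hyal2 in dermal (0.58, adjusted p = 0.00678). Other pathway genes called numbered 7 on the dermal and 10 on the inguinal side. Deviations of same-numbered libraries correlated at 0.46 across genes, but with 2 pairs and no label saying what a number marks, the numbers are not taken to pair the samples. Among the other pathway genes Ugdh, Uap1l1, Gusb, Hexa and Tlr2 also lost their calls in 1 or more settings that kept all libraries. Has1, Has2 and Has3 were read from 24 to 193 reads a depot, and how far depth limits their tests was not tested.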

Other observations

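Relative to the summed inflammation-induced list, Ptx3 stood at 4.33% and 3.29% in dermal and 16.7% and 11.7% in inguinal libraries, and Tnfaip6 at 0.924% and 1.68% against 3.10% and 3.20%, so neither overlapped between depots on that scale. Relative to the summed blood endothelial list, Ptx3 stood at 11.98% and 8.15% in dermal and 30.3% and 13.3% in inguinal libraries, without overlap, and Tnfaip6 at 2.56% and 4.17% against 5.62% and 3.66%, with overlap. Stab1 relative to the summed macrophage list was 8.95% and 10.2% in dermal and 8.41% and 12.3% in inguinal libraries, with overlap. These ratios were chosen after the values were seen and carry no test.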
